A study of Mus musculus with 8 samples.

Results

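The adaptors and cofactors of the Toll-like receptors were followed in bulk RNA-seq of mouse right cerebral cortex after bilateral carotid artery stenosis (BCAS), a model of chronic cerebral hypoperfusion. They are 10 genes of the 54752 in the count tables, chosen by name for their place in the pathway. The TIR-domain adaptors are Myd88, Tirap, Ticam1 and Ticam2. Cd14 and Ly96 are the co-receptors for lipopolysaccharide, Irak4, Irak3 and Traf6 are the kinases and ubiquitin ligase that follow the adaptors, and Unc93b1 is the trafficking factor of the endosomal receptors. All 10 passed the filter on low counts, but Ticam2 and Ly96 did so only through the BCAS libraries, where they were high. A gene that enters in this way had to differ, so counts over the 10 are given beside those over the other 8.

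The 4 BCAS mice carried microcoils of unequal bore around both common carotid arteries, the narrower on the right, and the 4 sham mice had the same operation without coils. All 8 were wild-type C57BL/6 males (C57BL/6 J in the study's methods) 14 weeks old, taken 3 weeks after surgery, with no transgene in either group. Each library came from the right cortex of a single mouse, so the data describe the side of the tighter stenosis and mix all cell types of the tissue.

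Toll-like receptors recognise microbial products and molecules released by damaged cells. Once bound, a receptor recruits adaptors through a shared TIR domain. Myd88 serves nearly all of these receptors and assembles a complex with Irak4, from which Traf6 carries the signal to NF-kappaB. Ticam1 serves Tlr3 and internalised Tlr4 and leads to type I interferon. Tirap and Ticam2 are bridging adaptors that bring Myd88 and Ticam1 to the membrane. In the brain, microglia and border macrophages are the best known carriers of this pathway.

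Library totals ran from 16759364 to 21794435 assigned read pairs, so that the 3 counts allowed by a reading of 0 correspond to 0.179 counts-per-million units (CPM) in the smallest library. All levels below are CPM scaled by the trimmed mean of M-values (TMM), unless given per length. Sham mouse 3 stood apart in choroid plexus genes, with 758 CPM summed over 5 markers against 14.5 to 62.5 in the other 7 libraries. Without it, 9 of the 10 genes were still called, as with it. Checked against the labelled tissue, 9 neuronal markers summed to 9459 to 10875 CPM in sham and 3821 to 8051 CPM in BCAS mice, and 5 markers of the cortical excitatory layers to 409 to 563 and 143 to 364 CPM, without overlap. The 5 striatal markers summed to 376 CPM in BCAS mouse 4 against 117 to 225 in the other 7 libraries, and 9 of the 10 genes were called without that mouse.

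Of the 10 genes, 9 were higher in BCAS cortex at an edgeR adjusted p under 0.05 and a log2 fold change above 1, where 11.0% of all 17136 genes tested were called higher and 1.28% lower. Of the 8 that also passed the filter on their sham libraries, 7 were called. The remaining gene, Traf6, passed on its adjusted p but not its fold. By adjusted p, with or without the fold, 10 of the 10 and 8 of those 8 were higher, beside 19.2% of all genes higher and 12.8% lower. Tested against a log2 fold change of 1, the stricter question, 4 of the 10 passed (Ticam2, Cd14, Unc93b1 and Ly96), or 2 of those 8, where 4.31% of all genes did so in the higher direction. The fold changes spread from 1.32 for Traf6 to 14.97 for Ticam2, which had few reads in sham mice. With limma on log2(CPM + 1), which understates low genes, the log2 fold change of Ticam2 was 1.92, under those of Cd14 (3.03) and Unc93b1 (2.89), and that of Ly96 was 1.28. Without sham mouse 1, Ticam2 (3.55) was also under Cd14 (3.72). The median log2 fold change of the 10, with Ticam2 and Ly96 in it, was 2.15, beside -0.01 over all genes tested. In 9 of the 10, and 7 of those 8, every BCAS mouse lay above every sham mouse, which was so for 18.5% of all genes tested, while 16.3% were separated the other way.

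**Figure D1:**
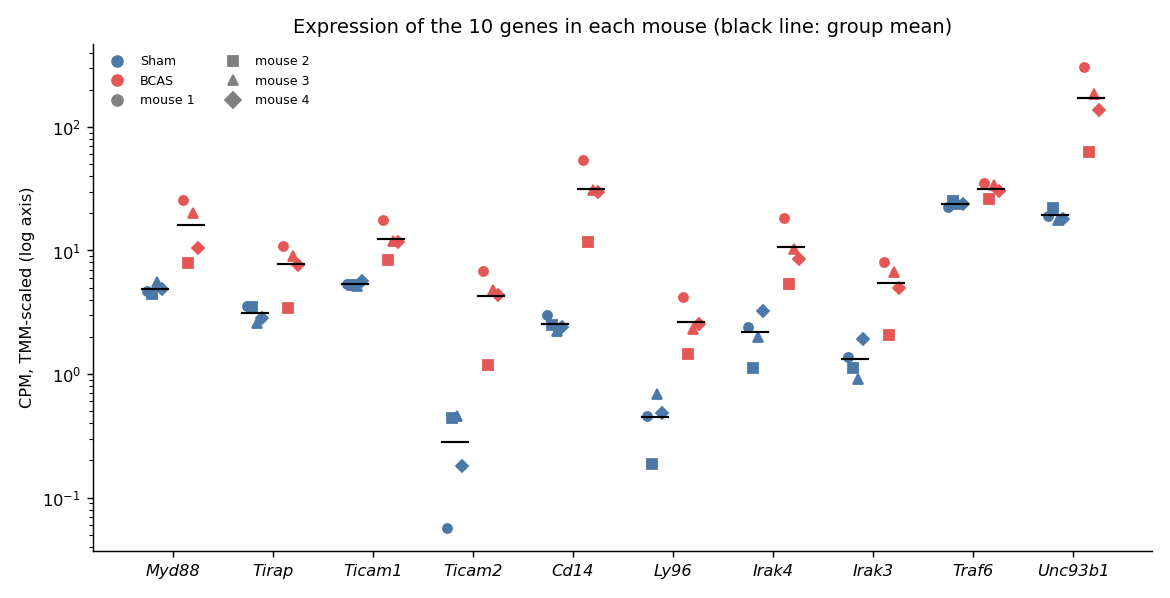
TMM-scaled CPM (log axis) of each gene in the 4 sham mice (blue) and 4 BCAS mice (red), with a symbol for each mouse and a black line at the group mean. The groups overlap for Tirap alone, and BCAS mouse 1 is the highest and BCAS mouse 2 the lowest BCAS value of every gene.

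Promoter sequence is shown for the adaptors Myd88 and Ticam1 and for Traf6, the genes in whose upstream windows a searched motif was found. The windows come from RefSeq on GRCm38.p6, the assembly called mm10, and run 5′ to 3′ on the gene's strand over the 250 bases before the start, with the motif matches in capitals.
Myd88 chr9:119340019-119340268, strand -: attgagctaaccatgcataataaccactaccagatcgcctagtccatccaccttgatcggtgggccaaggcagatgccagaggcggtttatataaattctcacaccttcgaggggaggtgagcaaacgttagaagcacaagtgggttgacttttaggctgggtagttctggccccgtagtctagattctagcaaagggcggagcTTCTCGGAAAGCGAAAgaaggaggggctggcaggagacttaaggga
Ticam1 chr17:56276768-56277017, strand -: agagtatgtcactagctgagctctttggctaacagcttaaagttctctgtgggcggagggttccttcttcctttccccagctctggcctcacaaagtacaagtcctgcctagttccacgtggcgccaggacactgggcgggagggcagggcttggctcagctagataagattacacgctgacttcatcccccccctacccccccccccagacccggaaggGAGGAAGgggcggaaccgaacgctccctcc
Traf6 chr2:101678170-101678419, strand +: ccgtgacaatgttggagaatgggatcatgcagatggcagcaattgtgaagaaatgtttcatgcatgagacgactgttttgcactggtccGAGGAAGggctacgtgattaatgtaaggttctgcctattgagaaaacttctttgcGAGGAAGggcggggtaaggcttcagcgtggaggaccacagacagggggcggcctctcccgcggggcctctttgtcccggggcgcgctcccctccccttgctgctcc
In Myd88 the capitals hold an interferon-stimulated response element (GAAA, any 2 bases, GAAA), from 40 to 31 bases before the start, and a gamma-activated site (TTC, any 3 bases, GAA) from 46 to 38 bases before it, which overlap. In Ticam1 and Traf6 they mark the PU.1-type ETS letters GAGGAAG. Counting both strands, the response element was present in 3.44% of all 32851 windows, the gamma-activated site in 8.30% and the ETS letters in 13.6%. RefSeq windows were at hand for 6 of the 10 genes. Those of Tirap, Irak4 and Irak3 held none of these letters, nor did any of the 6 hold the kappaB letters (GGG, any 2 bases, TTTCC), found in 1.63% of all windows. These matches are letters in a window and were not tested for binding.

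All 4 adaptors rose, with the largest log2 fold change in Ticam2. Myd88 (ENSMUSG00000032508.8, chr9:119335934-119341411), the adaptor common to most of these receptors, was at 4.66, 4.43, 5.55 and 4.89 CPM in sham mice 1 to 4. In BCAS mice 1 to 4 it was at 25.5, 7.88, 19.99 and 10.6 CPM. The lowest BCAS mouse was thus above the highest sham mouse, though the BCAS mice differed among themselves far more than the sham mice did. Its mean rose from 4.88 ± 0.482 to 15.99 ± 8.21 CPM (SD, n = 4 each), a log2 fold change of 1.71 (SE 0.35, edgeR adjusted p = 0.00946). The RefSeq start of the sequence printed above lies inside the longer gene span of the count table's annotation.

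Tirap (ENSMUSG00000032041.15, chr9:35184551-35200291) bridges Myd88 to Tlr2 and Tlr4. Sham mice had 3.52, 3.49, 2.57 and 2.84 CPM, and BCAS mice had 10.8, 3.45, 9.02 and 7.63 CPM. BCAS mouse 2 fell within the sham values, the only overlap among the 10 genes, while the other 3 were well above them. Tirap rose by a log2 fold change of 1.31 (SE 0.32, edgeR adjusted p = 0.0186). That call was lost without sham mouse 4 (adjusted p = 0.0556) and without BCAS mouse 3 (adjusted p = 0.0511).

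Ticam1 (ENSMUSG00000047123.8, chr17:56269319-56276786), the adaptor known as TRIF, was the steadiest adaptor in sham cortex, at 5.34, 5.30, 5.21 and 5.61 CPM. In BCAS mice it reached 17.8, 8.34, 11.9 and 11.7 CPM, all above the sham range. Its log2 fold change was 1.21 (SE 0.22, edgeR adjusted p = 0.00601). Without BCAS mouse 1 the log2 fold change came to 1.00, just under the fold threshold, with an edgeR adjusted p of 0.00396.

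Ticam2 (ENSMUSG00000056130.9, chr18:46559155-46574533), known as TRAM, brings Ticam1 to Tlr4. It was barely detected in sham cortex, with 1, 7, 8 and 3 read pairs, a sum of 19 (95% Poisson interval 11.4 to 29.7, counting error only). BCAS mice had 156, 23, 89 and 80, or 6.86, 1.18, 4.81 and 4.36 CPM. All BCAS mice were above all sham mice, and the log2 fold change of 3.90 had the widest interval of the 10 genes (95% interval 2.44 to 5.37, edgeR adjusted p = 0.00469). Of its annotated exonic bases, 21.3% are shared with Tmed7 on the same strand, and Tmed7 itself had a log2 fold change of 0.28 (edgeR adjusted p = 0.0378).

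The lipopolysaccharide co-receptors both rose. Cd14 (ENSMUSG00000051439.6, chr18:36725074-36726736), which hands lipopolysaccharide to the receptor complex, was at 3.01, 2.496, 2.23 and 2.41 CPM in sham mice. BCAS mice had 53.8, 11.6, 30.7 and 30.0 CPM. Even the lowest BCAS mouse was 3.87 times the highest sham mouse, the clearest separation among the 10 genes. The mean went from 2.54 ± 0.335 to 31.5 ± 17.3 CPM (SD, n = 4 each), a log2 fold change of 3.63 (SE 0.42, edgeR adjusted p = 0.00184).

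Ly96 (ENSMUSG00000025779.10, chr1:16688051-16709611) encodes MD-2, the protein on Tlr4 that holds the lipid itself. Sham mice had 8, 3, 12 and 8 read pairs of it, and BCAS mice 96, 28, 43 and 47. The groups did not overlap, at 0.187 to 0.686 CPM and 1.44 to 4.22 CPM. Its log2 fold change was 2.52 (SE 0.44, edgeR adjusted p = 0.00538). Tlr4, the receptor that both of them serve, rose by a log2 fold change of 3.17 (edgeR adjusted p = 0.00252).

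Of the downstream members, Irak4 and Irak3 rose and Traf6 changed little. Irak4 (ENSMUSG00000059883.16, chr15:94543643-94581815), the kinase that binds Myd88 first, was at 2.39, 1.12, 2.002 and 3.26 CPM in sham mice. BCAS mice had 18.4, 5.31, 10.2 and 8.50 CPM, again without overlap. It rose by a log2 fold change of 2.27 (SE 0.43, edgeR adjusted p = 0.00703). Irak3 (ENSMUSG00000020227.10, chr10:120141648-120202130), also called IRAK-M, is a family member that restrains this signalling in myeloid cells. Its values were 1.36, 1.12, 0.915 and 1.93 CPM in sham mice against 8.001, 2.06, 6.64 and 5.01 CPM in BCAS mice. BCAS mouse 2 was only just above sham mouse 4, and the log2 fold change was 2.02 (SE 0.42, edgeR adjusted p = 0.0103).

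Traf6 (ENSMUSG00000027164.8, chr2:101678429-101701669), the E3 ubiquitin ligase on which the Myd88 branch converges, changed least of the 10. Sham mice had 22.6, 25.2, 23.7 and 23.8 CPM, and BCAS mice had 35.3, 26.2, 34.0 and 30.2 CPM. The groups did not overlap, but BCAS mouse 2 was only slightly above sham mouse 2. The log2 fold change was 0.40 (95% interval 0.16 to 0.64, edgeR adjusted p = 0.0250), with an upper end below the fold threshold. The adjusted p exceeded 0.05 in 6 of the 8 fits that left out a library, reaching 0.0739 without sham mouse 1.

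Unc93b1 (ENSMUSG00000036908.16, chr19:3935186-3949340) escorts the nucleic acid-sensing receptors, among them Tlr3, Tlr7 and Tlr9, from the endoplasmic reticulum to endosomes. It was at 19.2, 22.3, 17.6 and 17.9 CPM in sham mice. In BCAS mice it reached 306, 63.3, 184 and 136 CPM, all far above the sham mice. The log2 fold change was 3.16 (SE 0.42, edgeR adjusted p = 0.00235). Of its client receptors, Tlr3 was the receptor with the smallest change, at a log2 fold change of 1.06 (edgeR adjusted p = 0.0100), while Tlr7 reached 3.91 (edgeR adjusted p = 0.00185).

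**Figure D2:**
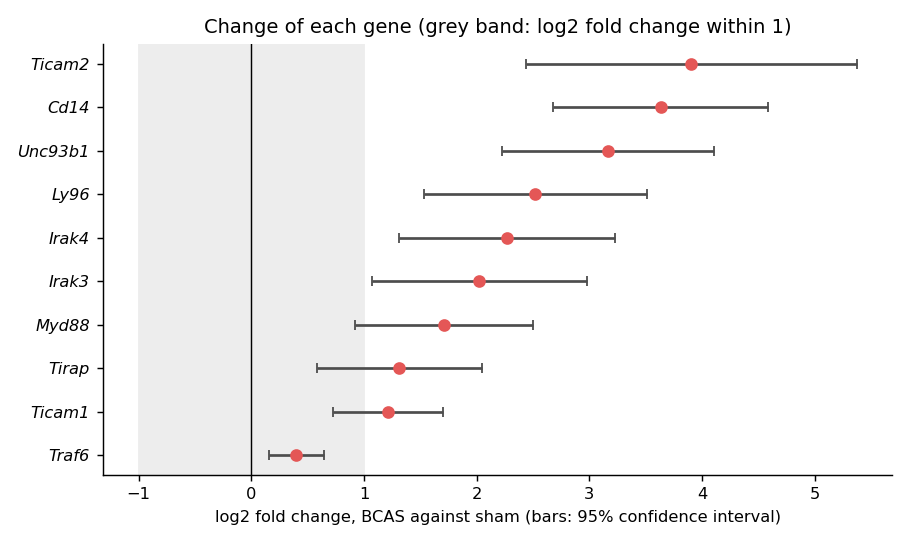
Log2 fold change of BCAS against sham for each gene (points) with its 95% confidence interval (bars) from edgeR, n = 4 mice per group. The grey band marks log2 fold changes within 1, and Traf6 is the only gene whose point lies in it.

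The counting used no strand and left out pairs that overlap several genes, so that part of several members was not counted cleanly. Opposite-strand exons cover 11.3% of the exonic bases of Myd88 (Acaa1a), 9.84% of Tirap (Srpr and Gm39318), 7.87% of Irak4 (Twf1) and 5.99% of Irak3 (Tmbim4 and Gm47009). Of these neighbours, Acaa1a, Srpr, Twf1 and Tmbim4 had log2 fold changes of 0.28 to 0.48, smaller than those of the members they overlap.

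In BCAS cortex the 10 genes ranked the mice alike. BCAS mouse 1 was the highest and BCAS mouse 2 the lowest in 10 of 10, and 9 followed the order mouse 1, 3, 4, 2. Ly96 was the exception, with mouse 4 above mouse 3. Among all 1877 genes called higher, 86.5% had the same extremes and 69.3% the same full order, so this ranking was not particular to the pathway.

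Markers of several cell types were also higher in BCAS cortex, while neuronal markers were lower. All 14 microglial markers were called higher, and their summed level went from 430 to 518 CPM in sham mice to 6122, 1681, 3009 and 3266 CPM in BCAS mice 1 to 4. Of 6 border macrophage markers, 4 were called higher, with sums of 14.01 to 16.9 and then 25.1 to 89.0 CPM. The 10 monocyte and neutrophil markers summed to 0.905 to 1.87 CPM in sham mice and to 93.8, 4.38, 61.5 and 14.8 CPM in BCAS mice 1 to 4, with Ly6g at 0 in all 8 libraries. The 11 lymphocyte markers summed to 2.52 to 5.68 and then 6.64 to 75.4 CPM, and 6 of 9 neuronal markers were lower at an edgeR adjusted p under 0.05. Of 7 astrocyte markers, 5 were higher by adjusted p and 2 of them also by fold, Gfap (log2 fold change 3.90) and Aqp4 (1.65), with sums of 5208 to 6059 and then 6878 to 9842 CPM. Oligodendrocyte markers gave 0 of 6 by adjusted p, and endothelial markers 2 of 6 by adjusted p and 0 by fold. The sums of both of these lists overlapped between the groups. In bulk tissue, more cells of a type and more RNA per cell cannot be told apart, and the part of these cell types in the changes above was not tested.

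Each member was therefore also set against the mean log2 CPM of the 14 microglial markers in the same library, relative to the sham mean. On this scale, Cd14 was above the microglial markers in BCAS mice 1 to 4 by 0.93, 0.51, 1.15 and 0.99, outside the sham range of -0.13 to 0.27. Ticam2 averaged 0.92 ± 0.50 and Unc93b1 0.45 ± 0.34 above them (SD, n = 4), but their BCAS values overlapped the sham mice. The other 7 were below the mean of the microglial markers in all 4 BCAS mice. The single markers had log2 fold changes from 1.37 (Slc2a5) to 3.83 (Fcrls), a range that holds those of Cd14, Unc93b1, Ly96, Irak4, Irak3 and Myd88. Ly96 averaged -0.22 ± 0.12, Irak4 -0.33 ± 0.16 and Irak3 -0.67 ± 0.39, and these 3 overlapped the sham mice. The averages of the members below the sham range were Myd88 (-0.96 ± 0.43), Tirap (-1.32 ± 0.33), Ticam1 (-1.36 ± 0.29) and Traf6 (-2.11 ± 0.57). Relative to this marker set, 3 members were thus above their sham mean and 7 below it on average. These are values without a test.

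**Figure D3:**
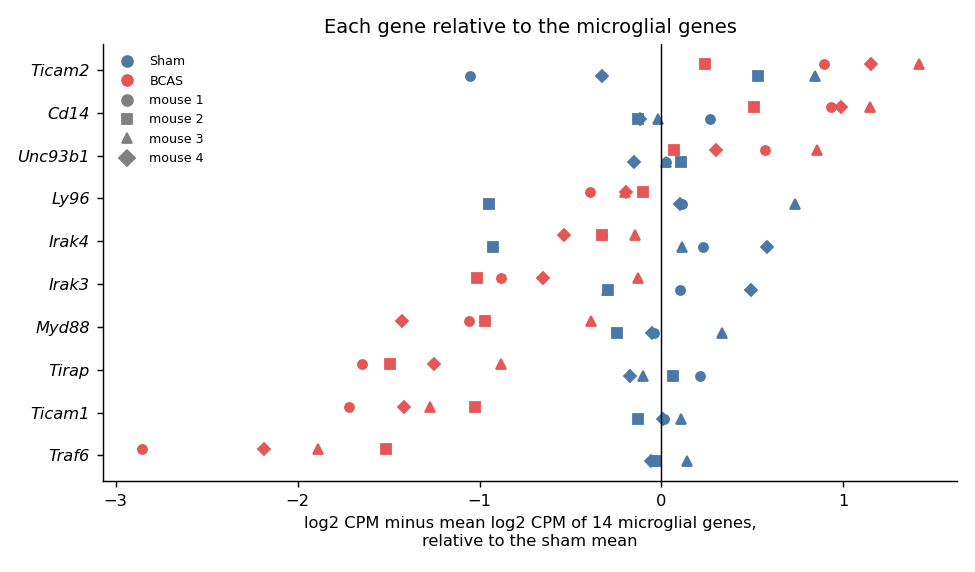
Log2 CPM of each gene minus the mean log2 CPM of 14 microglial markers in the same mouse, relative to the sham mean, for 4 sham (blue) and 4 BCAS mice (red). Cd14 lies to the right of its sham mice in all 4 BCAS mice, and Myd88, Tirap, Ticam1 and Traf6 lie to the left.

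Levels of different genes were compared per length, as TMM-scaled CPM per kilobase of exon (RPKM). In sham cortex Unc93b1 was highest at 6.77 ± 0.755 RPKM (SD, n = 4), followed by Traf6 at 3.02 ± 0.135, with separate ranges. Myd88 (1.895 ± 0.187), Ticam1 (1.79 ± 0.0582) and Cd14 (1.61 ± 0.213) came next, and neighbours among these 3 overlapped. Tirap (0.630 ± 0.0967), Ly96 (0.443 ± 0.201), Irak4 (0.437 ± 0.176) and Irak3 (0.363 ± 0.119) formed a lower set with overlapping neighbours. Ticam2 was lowest at 0.0721 ± 0.04999 RPKM, below every other gene in range.

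In BCAS cortex Unc93b1 stayed highest at 60.6 ± 35.8 RPKM and Cd14 moved from the fifth place to the second, at 20.1 ± 11.0. Traf6 moved from the second place to the fifth at 3.99 ± 0.518 RPKM, behind Myd88 (6.21 ± 3.19) and Ticam1 (4.15 ± 1.31). Ly96 (2.58 ± 1.14), Irak4 (2.11 ± 1.11), Tirap (1.57 ± 0.636), Irak3 (1.48 ± 0.695) and Ticam2 (1.10 ± 0.597) followed. All neighbours in the BCAS order overlapped, so that only the sham order held neighbours with separate ranges.

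**Figure D4:**
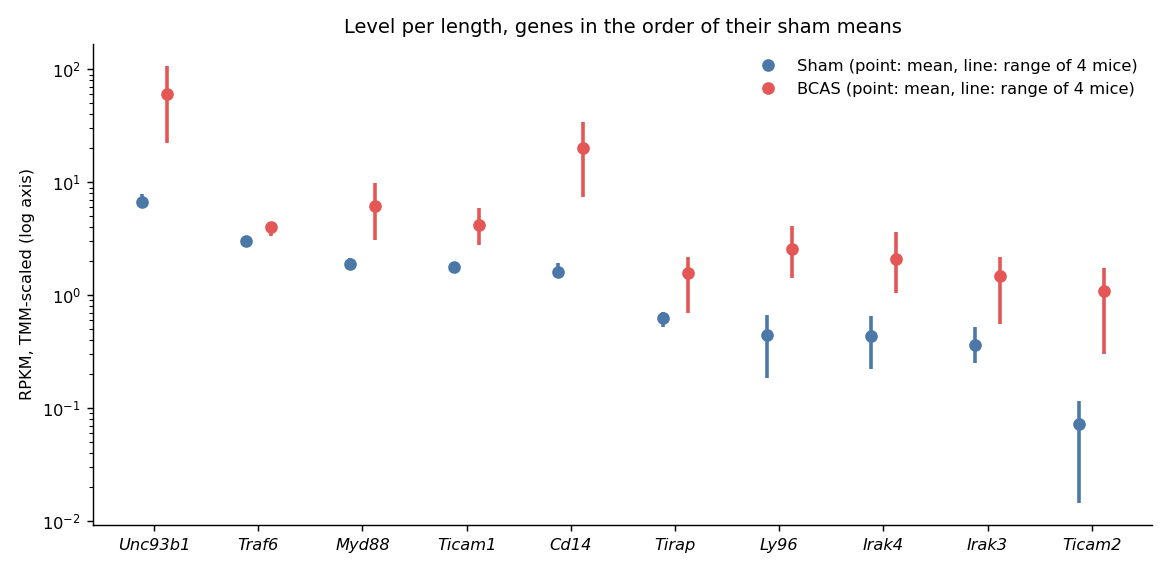
Level per length (TMM-scaled RPKM, log axis) of each gene in sham (blue) and BCAS (red) cortex, as the mean (point) and the range over 4 mice (line), ordered by the sham mean. Cd14 climbs from 1.61 to 20.1 RPKM and passes Traf6, which moves from 3.02 to 3.99.

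As shares of the summed level per length of the 4 adaptors, Myd88 made up 43.1 ± 3.24% in sham and 46.4 ± 6.25% in BCAS cortex (SD, n = 4 each). Ticam1 made up 40.9 ± 1.80% and then 33.6 ± 6.28%, and Tirap 14.4 ± 2.496% and then 12.05 ± 1.86%. The share of Ticam2 went from 1.63 ± 1.13% to 7.97 ± 2.54%, and its sham range of 0.335 to 2.58% did not meet the BCAS range of 4.403 to 10.4%. This follows from the rise of Ticam2 given above, and its sham shares rest on 1, 7, 8 and 3 read pairs. The adaptor pool was thus mostly Myd88 and Ticam1 in both groups.

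Whether partners in a step moved together was asked of 5 pairs, as the log2 ratio of their counts within each mouse. The ratio of Tirap to Ticam2, the bridging adaptors of the Myd88 and Ticam1 branches, was 5.38, 2.91, 2.42 and 3.76 in the sham group and 0.66, 1.52, 0.90 and 0.80 in the BCAS group. It was lower in every BCAS mouse, by 2.65 on average (SE 0.68), though the highest sham ratio rests on a single read pair of Ticam2 in sham mouse 1. The exact two-sided permutation test gave p = 0.0286, the smallest it can give with 4 against 4, and 0.143 after Benjamini-Hochberg adjustment over the 5 pairs. The ratios used unfiltered counts of pairs set by name, with earlier results of these data known. Ticam2 passed the filter of the fit only through the BCAS libraries, so this p is no separate support for its rise. The difference was -1.71 with 5 in place of 0.5 added to each count and -2.06 without sham mouse 1, and the exact permutation p was 0.0571 without BCAS mouse 1, 3 or 4.

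The ratio of Cd14 to Ly96 was 2.65, 3.53, 1.66 and 2.25 in the sham group and 3.67, 2.99, 3.71 and 3.53 in the BCAS group. Ly96, too, passed the filter of the fit only through the BCAS libraries. Sham mouse 2, with only 3 Ly96 read pairs, lay among the BCAS mice, and the mean difference was 0.95 (SE 0.43, exact permutation p = 0.0571, adjusted 0.143). Without sham mouse 2 the difference was 1.29 (exact permutation p = 0.0286), and without sham mouse 3 it was 0.66 (exact permutation p = 0.171). The ratio of Myd88 to Irak4 was lower in BCAS mice by a mean difference of -0.66 (SE 0.33, exact permutation p = 0.0857, adjusted 0.143). The remaining pairs overlapped widely, with differences of 0.40 (SE 0.24) for Myd88 over Ticam1 (exact permutation p = 0.171, adjusted 0.214) and -0.32 (SE 0.29) for Irak3 over Irak4 (exact permutation p = 0.343). No pair passed after adjustment, which the smallest possible p of this design allows only when several pairs reach it together.

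**Figure D5:**
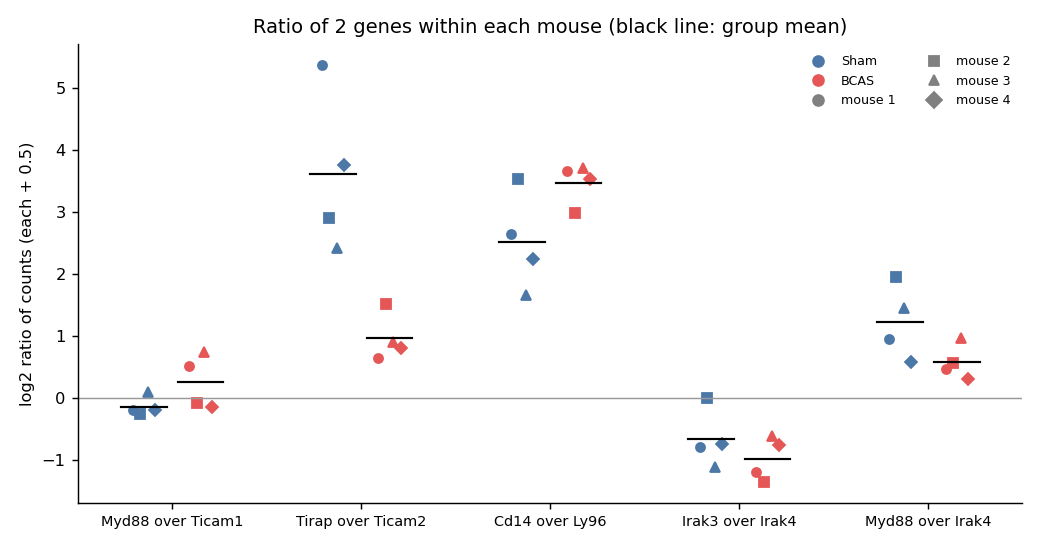
Log2 ratio of the counts of 2 genes (0.5 added to each) within each of 4 sham (blue) and 4 BCAS mice (red), with a black line at the group mean. Tirap over Ticam2 is the only pair whose groups do not overlap, at 2.42 to 5.38 in sham and 0.66 to 1.52 in BCAS mice.

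The other genes of the pathway placed the members in context. Of 61 further pathway genes, 55 were tested, 31 were called higher and 0 lower, beside 11.0% and 1.28% of all genes tested. At an edgeR adjusted p under 0.05 alone, 37 were higher and 2 lower, beside 19.2% and 12.8% of all genes. Some of the 31 passed the filter only through the BCAS libraries, where they were high, and so had to differ. With 10 counts required in every library, 22 were called higher and 0 lower. The median log2 fold change of the 55 was 1.07, below that of the 10 members.

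Of 12 receptors, 11 were tested and all 11 of these were called higher, with a median log2 fold change of 3.24. Among them Tlr1, Tlr5, Tlr6, Tlr8 and Tlr12 passed the filter only through the BCAS libraries, so their calls were partly set by it. Tlr2, the receptor for bacterial lipoproteins, changed most at 5.48 (edgeR adjusted p = 0.00146), followed by its partner Tlr1 at 4.69, Tlr8 at 4.41 and Tlr7 at 3.91. Tlr8 had 3, 10, 0 and 1 read pairs in sham mice 1 to 4, and its groups overlapped (SE 1.05, edgeR adjusted p = 0.0163). The proteins that transfer ligand, the related co-receptors and the chaperones gave 4 calls of 8, Cd180 (4.94), Ly86 (4.56), Lbp (2.93) and Cd36 (2.58). The groups overlapped for Lbp and Cd36, with sham mouse 3 at 7.15 and 4.23 CPM and BCAS mouse 2 at 4.12 and 3.14 CPM. Hmgb1, a nuclear protein released by damaged cells, had the smallest change of that list at 0.04 (edgeR adjusted p = 0.697).

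The downstream kinases, ubiquitin enzymes and interferon regulatory factors gave 6 calls of 19, with a median log2 fold change of 0.44. The largest were Irf7 (4.10), a regulator of type I interferon, Btk (4.04), Pik3ap1 (3.90) and Irf5 (3.33). Map3k7, the kinase that Traf6 activates, was at 0.03 (edgeR adjusted p = 0.750), the smallest of the list. Ube2n, the ubiquitin-conjugating partner of Traf6, fell by 0.37 on the log2 scale (edgeR adjusted p = 0.0418) without passing the fold threshold, and is named here after its value was seen.

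The negative regulators gave 3 calls of 8, Zc3h12a (2.57), Tnfaip3 (1.49) and Socs1 (1.04), with a median log2 fold change of 0.29. Cyld had the smallest change at -0.14 (edgeR adjusted p = 0.322), and Tollip, named after its value was seen, fell by 0.35 on the log2 scale (edgeR adjusted p = 0.0203). Of 14 target genes, 9 were tested and 7 called higher, led by Ccl2 (5.63), Cxcl10 (5.22), Ccl5 (5.01) and Il1b (3.25). These 4 passed the filter only through the BCAS libraries, with 0 to 11 read pairs in any sham mouse, and so had to differ. Ptgs2 had the smallest change, at -0.41 (edgeR adjusted p = 0.154). Ifnb1, the type I interferon at the end of the Ticam1 branch, had 0 counts in all 8 libraries, and Tnf, with 0 to 3 counts in the sham group but 142, 5, 44 and 26 in the BCAS group, did not pass the filter.

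The genes whose values over the 8 libraries lay closest to each member were found by the root-mean-square difference in log2 CPM, centred on the sham mean, among 13836 genes. Cd14 lay closest to Havcr2 (0.13), Vav1 (0.14) and Plek (0.14), and Unc93b1 to Il10ra (0.08), Ctsh (0.10) and Lgals9 (0.11). Myd88 lay closest to Iqgap1 (0.11), Gpr137b-ps (0.15) and Irf1 (0.15), and Tirap to Cdt1, Thbs2 and Itih5 (all 0.12). Ticam1 and Traf6 had the smallest distances, to Lims1 (0.04), Cntrl (0.06) and Chd7 (0.06) for Ticam1 and Btf3 (0.03), Sri (0.04) and Crat (0.05) for Traf6. Irak3 lay near Rassf4 (0.16) and Mgst1 (0.17).

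The remaining 3 members had larger distances to their closest genes. Ticam2 lay closest to Was (0.26), Psd4 (0.33) and Il2rg (0.39). For Ly96 these were Npl (0.27), Pygl (0.29) and C5ar2 (0.29), and for Irak4 they were Rinl (0.26), AI467606 (0.28) and Zc3h12a (0.32), the last also in the list of negative regulators. These distances all describe the same 8 libraries, in which most genes called higher rank the BCAS mice alike. They were not scaled to the size of a change or the number of reads, so they do not compare closeness between members.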

How the data were processed

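RNA-seq was made from the right cerebral cortex of 4 sham and 4 BCAS mice, 1 mouse per library. The authors deposited raw read-pair counts per gene for each library. Per the file headers these were made with featureCounts 2.0.1 on the exons of GENCODE vM20, pairs counted by gene, without strand and without counting pairs that overlap several genes. The submitters' notes name HISAT2, Trim Galore, SAMtools 1.9, mm10 and featureCounts 1.6.3, and the study's methods name RefSeq genes, so the sources differ on the featureCounts version and the annotation. Lengths and shared exons here follow the file headers. Gene names came from a GENCODE vM21 table, which matched 53861 of 54752 identifiers with their version and 862 more without it. The mice's age came from the study's sample sheet.

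Counts were tested in R 4.3.3 with edgeR 4.0.16 (TMM, filterByExpr with a minimum count of 10 and minimum total of 15, quasi-likelihood F-test, Benjamini-Hochberg over all 17136 genes tested). Calls needed an adjusted p below 0.05 and a log2 fold change beyond 1 in either direction, as in the study's methods. The study's own test, limma on log2 values, was kept as an alternative. The mice were independent animals, and each pair ratio was tested with an exact permutation test over 70 arrangements. RPKM used the exonic length in the tables, so levels of genes with shared exons are understated. The fit was tested on simulated counts with 200 changed genes. Alternatives were other scalings and filters, DESeq2, limma, thinning, a replicate block, a test against a log2 fold change of 1 and leaving out each library.

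The members, gene lists and tests were chosen with earlier results of these data known. All 10 members are named, and of each pathway list up to 4 called genes with the largest change and the tested gene with the smallest. For each member the 3 nearest genes are named, among those averaging 50 counts or more, except that 1 gene near Irak3 is not reported here.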

Additional observations from a re-analysis of the deposited data

How the results depend on the processing

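In all 19 alternatives the 10 genes kept a positive log2 fold change wherever they had a value, and 9 were called with DESeq2, limma-voom, limma on log2(CPM + 1), every other scaling, no filter and thinning to the smallest library. With the null hypothesis set at a log2 fold change of 1, 4 of the 10 genes and 19 pathway genes passed, where 4.31% of all genes did. The genes that did not pass were Traf6, Myd88 (edgeR adjusted p = 0.157), Tirap (0.682), Ticam1 (0.666), Irak4 (0.0517) and Irak3 (0.101). A filter of 10 counts in every library removed Ly96 and Ticam2, which then had no value, and left 7 genes called, 8 at an adjusted p under 0.05 and 22 pathway genes higher. Leaving out each library in turn gave 8 to 9 called genes, 8 to 10 at an adjusted p under 0.05, and 26 to 33 pathway genes higher and 0 lower. Traf6 kept an adjusted p under 0.05 in 11 of the 19. The Cd14 to Ly96 difference was 1.40 with 5 in place of 0.5 added to each count (exact permutation p = 0.0286) and 0.87 with 0 added (p = 0.143), and that of Tirap to Ticam2 was -1.71 with 5 and -2.88 with 0 added (p = 0.0286 in both). With limma on log2(CPM + 1) the log2 fold change of Ticam2 was 1.92 and that of Ly96 1.28. With 1 library left out, the pair differences ran from 0.66 to 1.29 for Cd14 over Ly96 (exact permutation p from 0.0286 to 0.171), -3.05 to -2.06 for Tirap over Ticam2, -0.87 to -0.42 for Myd88 over Irak4, 0.24 to 0.54 for Myd88 over Ticam1 and -0.47 to -0.10 for Irak3 over Irak4. Tirap over Ticam2 came to an exact permutation p of 0.0571 without BCAS mouse 1, 3 or 4. Sham and BCAS mice share replicate numbers but only as numbers, with correlations of same-numbered deviations from -0.10 to 0.00. With the replicate block, 9 of the 10 genes and 27 pathway genes were called, Traf6 had an edgeR adjusted p of 0.0692, and the pair differences kept their values, with a smallest possible p of 0.125. The causes of these shifts were not tested. At the depth of these libraries the sham values of Ticam2 and Ly96 rest on few reads, which limits their fold changes.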
